A study of Homo sapiens with 6 samples.

Results

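Collagens, laminins, nidogens and the enzymes that modify collagen were followed after silencing of SDC1 in MDA-MB-231 cells, a long-established line of human triple-negative breast cancer. SDC1 encodes syndecan-1, a cell surface proteoglycan whose heparan sulfate chains bind collagens and laminins. Small interfering RNA (siRNA), which degrades a matching transcript, was transfected into the cells. One group of 3 arrays received SDC1-siRNA, the other group of 3 a negative control siRNA, and the replicates are described as independent. No untransfected cells were analysed here, and the sources used here do not give the time after transfection or the siRNA sequences. The genes were chosen by name: 42 collagens, laminins, nidogens, lysyl hydroxylases and lysyl oxidases, of which 40 had a probe set tied to that gene alone, out of 19775 genes tested. COL17A1 and LAMA3 had none and were not analysed here. The 42 were chosen with earlier results of these data known.

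Collagens are matrix proteins whose alpha chains wind around each other into a stiff helix, so a collagen can need chains from more than 1 gene. Fibrillar collagens such as types I, III, V and XI build the fibres of connective tissue, and type IV collagen builds the sheet of the basement membrane that underlies epithelia. Laminins, each made of an alpha, a beta and a gamma chain, form the other network of that sheet, and nidogens link both networks. Lysyl hydroxylases, encoded by the PLOD genes, modify collagen chains before secretion, and lysyl oxidases crosslink them outside the cell, a step known to stiffen the stroma of breast tumours.

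Values are log2 expression relative to each probe set's median over the 6 arrays, so they show changes and no levels. A gene's value is the mean of its probe sets in its brightest class, and the classes (dim, middle, bright) are read from the numeric step that the deposited values keep. A change is SDC1 siRNA minus control siRNA, given with its standard error (SE) from limma's fit over all genes, n = 3 per group, and a gene passed the test at a Benjamini-Hochberg adjusted p under 0.05. SDC1 itself was at 1.13, 1.32 and 1.09 in the control arrays and at -1.14, -1.16 and -1.43 in the SDC1 siRNA arrays, and changed by -2.42 (SE 0.097, adjusted p = 2.05e-06), leaving 18.7% of its control value (-2.28 and -2.63 within the batches described next). The mean of 27 probe sets for poly-A spike-in controls, RNA added before labelling, split the arrays into batches that each hold both groups: a first one at 0.35 to 0.60 (control replicate 1 with SDC1 siRNA replicates 1 and 2) and a second one at -0.41 to -0.38 (the remaining arrays). The labels name no batch, and batch here means this split by spike-in signal alone. For the genes of the set past the test, the pooled change is followed by the change inside each batch, first batch first. All 6 markers fixed for the cell line (VIM, KRT8, KRT18, EGFR, CD44 and AXL) lay in the bright class, against 1 of 7 fibroblast and pericyte markers, 3 of 5 endothelial and none of 3 leukocyte markers. Of those 15 markers of other cell types, RGS5 rose by 0.25 (adjusted p = 0.0129, past the test in 5 of the 6 fits that left out 1 array) and CD14 fell by 0.46 (adjusted p = 0.00264), the latter in the middle class. VIM, CD44 and EGFR fell by 0.62, 0.68 and 0.41, and AXL rose by 0.25 (adjusted p between 8.14e-05 and 0.0279), AXL in 3 of those 6 fits. The part of these markers in the results was not tested.

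After SDC1 silencing 5 of the 40 genes rose and 9 fell. COL7A1, COL8A1, COL5A1, PLOD1 and COL13A1 were the genes that rose, and COL5A2, COL1A1, COL15A1, LAMA1, COL4A1, LAMA2, COL11A1, COL16A1 and LOX those that fell. LOX is counted as a fall by its mean alone, since its probe sets passed the test in opposite directions. No gene value changed 2-fold: the largest fall was that of COL5A2 (-0.91) and the largest rise that of COL7A1 (0.61). A single probe set of COL1A1, not in its gene value, fell by 1.23. The 14 genes past the test are 35.0% of the 40, where 28.2% of all genes tested passed. The rises are 12.5% of the genes against 13.0% of all genes, and the falls 22.5% against 15.2%. No test set these shares against each other. By brightness class, 9 of 22 bright genes passed (41.5% of all bright genes did), 4 of 16 in the middle class (20.0%) and 1 of 2 dim ones (4.89%). The median change was 0.04, against 0.00 over all genes. In 23 of the 40 genes, the 14 past the test among them, the ranges of both groups were apart (57.5%, against 41.8% of all genes).

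**Figure D1:**
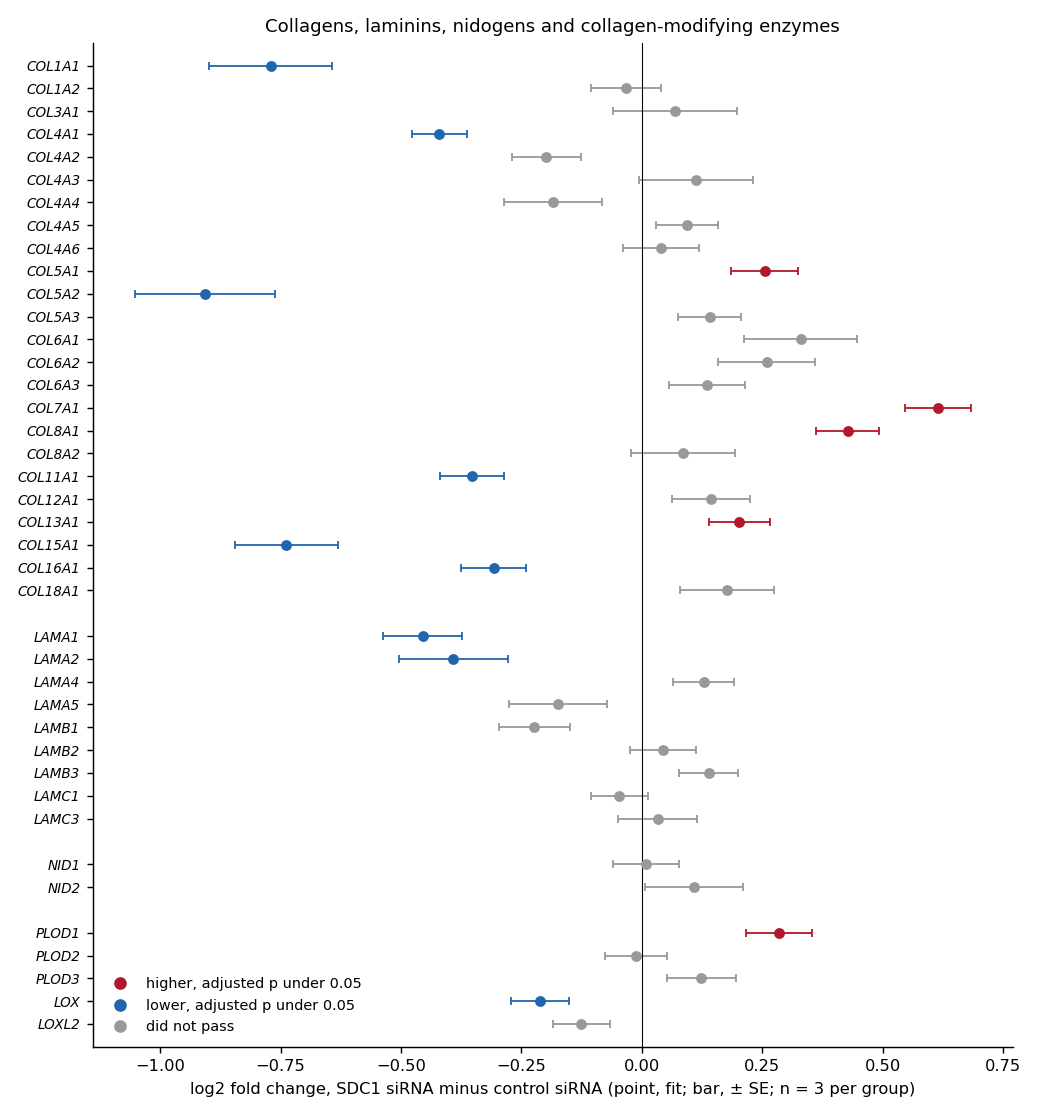
Log2 fold change of each of the 40 measured genes, SDC1 siRNA minus control siRNA (x axis, point with SE, n = 3 per group), in blocks of collagens, laminins, nidogens and enzymes (y axis); colour marks genes past the test at adjusted p under 0.05. The 9 falls reach -0.91 for COL5A2 and the 5 rises reach 0.61 for COL7A1, while 26 genes did not pass. LOX is among the falls by the mean of probe sets that passed in opposite directions.

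Of 7 fibrillar collagen genes 3 fell, 1 rose and 3 did not pass, where 15.2% of all genes fell and 13.0% rose. COL5A2, the alpha 2 chain of type V collagen that nucleates collagen fibres, was at 0.41, 0.65 and 0.21 in the control arrays and at -0.54, -0.72 and -0.21 in the SDC1 siRNA arrays. Every control array lay above every SDC1 siRNA array, although both groups were spread widely, with means of 0.42 ± 0.22 (SD, n = 3) and -0.49 ± 0.26 (SD, n = 3). The change of -0.91 (SE 0.15, adjusted p = 0.00188) left 53.3% of control, with -1.03 and -0.63 within the batches. Its dim probe set, not in that value, gave -0.39 (adjusted p = 0.107).

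COL5A1, whose alpha 1 chain joins the COL5A2 chain in the same type V molecule, went the other way. It was at -0.02, -0.14 and -0.21 in the control arrays and at 0.17, 0.17 and 0.06 after SDC1 siRNA. The groups did not overlap, but control replicate 1 and SDC1 siRNA replicate 3 lay close to each other. COL5A1 rose by 0.26 (SE 0.070, adjusted p = 0.0251), with 0.19 and 0.23 within the batches. Its 3 probe sets differed, at 0.44 and 0.41 (adjusted p = 0.00488 and 0.00480) and at -0.09 (adjusted p = 0.578). The call was lost without control replicate 2 or 3 or SDC1 siRNA replicate 1 or 2, at changes from 0.21 to 0.25 (adjusted p between 0.0703 and 0.0850). Reading the class from all 6 arrays gave 0.41 (adjusted p = 0.00156). The remaining type V chain, COL5A3, was at 0.14 (adjusted p = 0.153). The difference between the changes of these chains was not tested.

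COL1A1, the main chain of type I collagen, fell as well. Its control arrays were at 0.61, 0.68 and 0.17 and its SDC1 siRNA arrays at -0.33, -0.35 and -0.17. Control replicate 3 was the lowest control array, and still above every SDC1 siRNA array. The change was -0.77 (SE 0.13, adjusted p = 0.00221), 58.6% of control, and -0.95 and -0.59 within the batches. COL1A2, which supplies the second kind of chain of that collagen, was at -0.04, 0.03 and 0.06 and -0.11, 0.11 and -0.05, with overlapping groups, and at -0.03 (adjusted p = 0.785) did not pass. The size of the COL1A1 fall depends on the probe set: 1556499_s_at gave -1.23 and 202311_s_at -0.47, both past the test (adjusted p = 0.000182 and 0.0117), whereas 202312_s_at gave 0.05 and the cross-hybridising 217430_x_at 0.18 (adjusted p = 0.796 and 0.110). The gene value rests on 202310_s_at, the bright probe set that is not cross-hybridising. It was at -0.45 (adjusted p = 0.000459) over all probe sets and at -0.29 (adjusted p = 0.0170) as the mean with 217430_x_at.

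COL11A1, a chain of the minor fibrillar collagen type XI, was 1 of 2 measured genes of the dim class. It was at 0.12, 0.10 and 0.18 in the control arrays and -0.17, -0.17 and -0.32 after SDC1 siRNA, without overlap. It fell by 0.35 (SE 0.066, adjusted p = 0.00439), with -0.28 and -0.46 within the batches, and both probe sets in that value passed on their own (-0.31 and -0.39). With the cross-hybridising 229271_x_at averaged in, the fall was 0.21 (adjusted p = 0.0276). COL3A1, the type III collagen gene, was at 0.07 (adjusted p = 0.749), with its 3 SDC1 siRNA arrays at 0.34, -0.13 and 0.06, on both sides of the controls.

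Type IV collagen is encoded by 6 genes in 3 head-to-head pairs, each pair transcribed outward from the interval between its starts. COL4A1 and COL4A2, which supply the chains of the common basement membrane network, start 126 bases apart on chromosome 13. That interval is shown because it lies upstream of the type IV gene that fell and of its partner. It spans chr13:110307158-110307283 of GRCh38.p14, and the RefSeq sequence is given on the plus strand, so that COL4A2 follows its right end and COL4A1 its left. Capitals mark matches to CCAAT and GGGCGG, the CCAAT and GC boxes:
COL4A1-COL4A2 interval: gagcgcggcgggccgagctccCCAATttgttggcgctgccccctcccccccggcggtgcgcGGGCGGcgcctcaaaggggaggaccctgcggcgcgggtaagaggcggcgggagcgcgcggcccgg
With both strands searched it holds 1 match to each. No match was found to the TATA box (searched as TATAAA) or to the AP-1 motif (searched as TGANTCA). The 126 bases before the start hold CCAAT in 21.1% of 35116 RefSeq promoters and GGGCGG in 34.6%, TATAAA in 5.87% and TGANTCA in 3.50%.

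COL4A1 was at 0.23, 0.17 and 0.21 in the control arrays and at -0.27, -0.18 and -0.20 in the SDC1 siRNA arrays. The groups were far apart for their spread. COL4A1 fell by 0.42 (SE 0.058, adjusted p = 0.000786), to 74.7% of control, with -0.45 and -0.39 within the batches. Both of its probe sets passed, at -0.36 and -0.48. COL4A2 was at 0.13, 0.20 and 0.02 against -0.05, -0.02 and -0.17, likewise without overlap. Its change was -0.20 (SE 0.072, adjusted p = 0.0748) and did not pass, with -0.17 and -0.28 within the batches and an adjusted p of 0.0498 without control replicate 3 and of 0.04999 under a robust prior.

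The other pairs encode chains of more restricted basement membranes, such as that of the kidney glomerulus. In the pair on chromosome 2, with 418 bases between the starts, COL4A3 was at 0.11 (adjusted p = 0.547) and COL4A4 at -0.18 (adjusted p = 0.232). In the pair on the X chromosome, with 379 bases between the starts, COL4A5 was at 0.09 (adjusted p = 0.339) and COL4A6 at 0.04 (adjusted p = 0.764). For each of these 4 genes the arrays of the groups overlapped. COL4A3 hung on single arrays, with SDC1 siRNA arrays at 0.23, 0.21 and -0.21 and an adjusted p of 0.0404 without SDC1 siRNA replicate 3, where its change was 0.26. COL4A4 likewise had SDC1 siRNA arrays at 0.07, -0.35 and -0.20, and was at -0.30 (adjusted p = 0.0298) without SDC1 siRNA replicate 1.

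**Figure D2:**
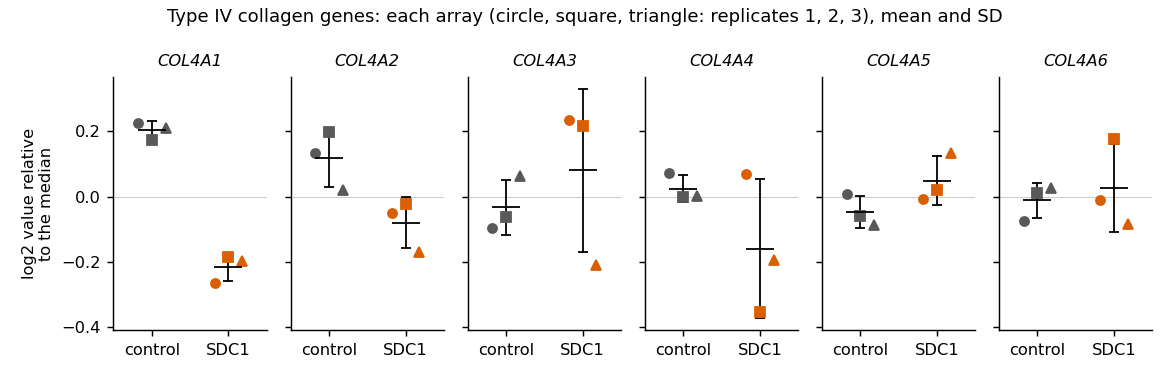
Log2 value of each array relative to the median (y axis) for the 6 type IV collagen genes in control and SDC1 siRNA arrays (x axis); symbols are replicates, bars the mean and SD (n = 3 per group). COL4A1 and COL4A2 show groups that do not overlap, at changes of -0.42 and -0.20, while the groups of the other 4 genes overlap.

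COL7A1 had the largest rise. Type VII collagen forms the anchoring fibrils that tie the epithelial basement membrane to the tissue beneath. The control arrays were at -0.34, -0.35 and -0.26 and the SDC1 siRNA arrays at 0.22, 0.26 and 0.40, means of -0.32 ± 0.049 (SD, n = 3) and 0.30 ± 0.094 (SD, n = 3). Each SDC1 siRNA array lay well above each control array. COL7A1 rose by 0.61 (SE 0.068, adjusted p = 0.000266), a 1.53-fold gain, with 0.59 and 0.71 within the batches, and its probe sets passed at 0.68 and 0.55.

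COL8A1 encodes a chain of the network-forming type VIII collagen, known from vessel walls and beneath endothelia. It was at -0.14, -0.30 and -0.25 in the control arrays and at 0.14, 0.22 and 0.23 in the SDC1 siRNA arrays, without overlap, and rose by 0.43 (SE 0.065, adjusted p = 0.00134), with 0.33 and 0.50 within the batches. Its middle-class and dim probe sets gave -0.02 and 0.32 (adjusted p = 0.927 and 0.103), and with all probe sets averaged the rise was 0.24. COL8A2, the other chain of type VIII collagen, was at 0.08 (adjusted p = 0.627), with overlapping groups.

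COL15A1 and COL18A1 encode the multiplexins, basement membrane collagens that carry sugar chains and whose ends are cut off as antiangiogenic fragments. COL15A1 was at 0.30, 0.30 and 0.26 in the control arrays and at -0.71, -0.40 and -0.26 after SDC1 siRNA. The control arrays were tightly grouped and the SDC1 siRNA arrays widely spread (SD 0.024 and 0.23), without overlap. Its 1 probe set fell by 0.74 (SE 0.11, adjusted p = 0.00105), to 60.0% of control, and the change was -0.85 and -0.53 within the batches. COL18A1, the source of endostatin, was at 0.06, -0.10 and -0.21 against 0.17, 0.20 and -0.08, with overlapping groups and a change of 0.18 (adjusted p = 0.230).

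COL16A1 and COL12A1 belong to the collagens that associate with fibrils. COL16A1 was at 0.20, 0.20 and 0.08 in the control arrays and -0.22, -0.08 and -0.15 in the SDC1 siRNA arrays, without overlap, and fell by 0.31 (SE 0.068, adjusted p = 0.00920; -0.35 and -0.29 within the batches). COL12A1 did not pass at 0.14 (adjusted p = 0.239) on its bright probe set, yet 2 others passed in opposite directions. These were 231766_s_at at -0.58 (adjusted p = 0.00474), with control arrays at 0.18, 0.19 and 0.49 and SDC1 siRNA arrays at -0.30, -0.41 and -0.18, and the dim 233109_at at 0.30 (adjusted p = 0.0245). The data thus give no single direction for COL12A1.

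COL13A1, a transmembrane collagen of cell-matrix contacts, was at -0.04, -0.06 and -0.16 in the control arrays and 0.14, 0.16 and 0.04 after SDC1 siRNA, without overlap. It rose by 0.20 (SE 0.064, adjusted p = 0.0451), 0.19 and 0.16 within the batches, the highest adjusted p among the rises. The call held without SDC1 siRNA replicate 3 and was lost without any other single array, at changes from 0.17 to 0.23 (adjusted p between 0.0645 and 0.140). The value rests on 211343_s_at, which did not pass in the fit over probe sets (0.20, adjusted p = 0.0918). Both other probe sets of COL13A1, cross-hybridising ones left out of that value, gave 0.12 (adjusted p = 0.414 and 0.353). The call was also lost with them included (0.15, adjusted p = 0.152), with array medians subtracted (adjusted p = 0.0515) and with a block for the spike-in batch (0.17, adjusted p = 0.0832).

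Type VI collagen, a microfibril-forming collagen found around most cells, has its main chains in COL6A1, COL6A2 and COL6A3. None passed the test as fitted. COL6A1 was at -0.01, -0.05 and -0.38 against 0.25, 0.30 and 0.01, a change of 0.33 (SE 0.12, adjusted p = 0.0690), COL6A2 at 0.26 (adjusted p = 0.0935) and COL6A3 at 0.14 (adjusted p = 0.258). Control replicate 3 was the lowest array for all of them, and SDC1 siRNA replicate 3 the lowest of its group. Without SDC1 siRNA replicate 3, COL6A1 was at 0.42 (adjusted p = 0.0399) and COL6A2 at 0.34 (adjusted p = 0.0467), and on all arrays COL6A1 passed with array weights (0.34, adjusted p = 0.0458). Of the 8 COL6A1 probe sets, 212091_s_at passed alone, at 0.44 (adjusted p = 0.0116).

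**Figure D3:**
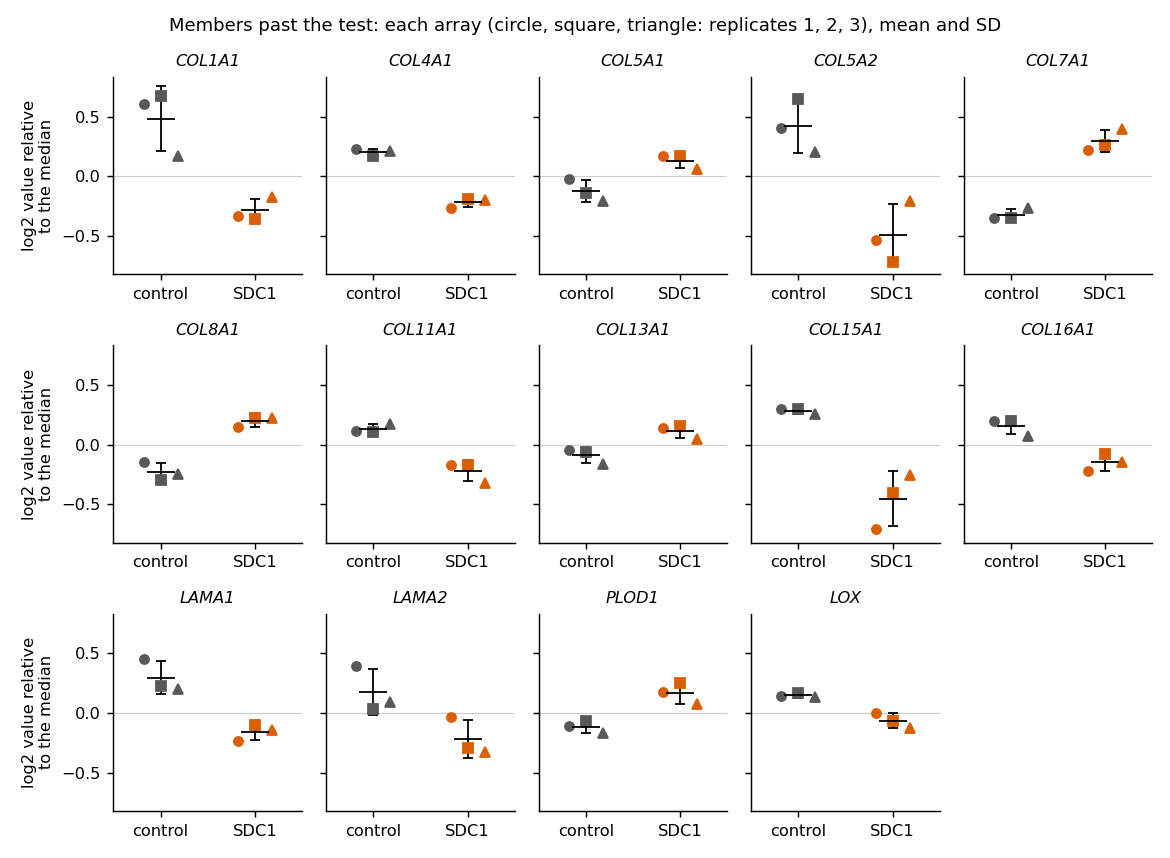
Log2 value of each array relative to the median (y axis) for the 14 genes past the test, in control and SDC1 siRNA arrays (x axis); symbols are replicates, bars the mean and SD (n = 3 per group). The groups do not overlap for any of the 14. COL7A1 and COL4A1 show tight groups, while COL5A2 is widely spread in both groups and COL1A1 in the control arrays.

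Of 9 measured laminin genes 2 alpha chains fell, none rose and 7 did not pass, with a median change of -0.05. With 28.2% of all genes past the test, this count lies near the background and is no result about laminins. LAMA1, the alpha 1 chain of the laminin of early basement membranes, was at 0.46, 0.23 and 0.20 in the control arrays and -0.23, -0.10 and -0.14 after SDC1 siRNA. Control replicate 1 was the highest array, and the groups did not overlap. LAMA1 fell by 0.45 (SE 0.082, adjusted p = 0.00337), with -0.62 and -0.36 within the batches, as the mean of probe sets at -0.71 (adjusted p = 0.00228) and -0.20 (adjusted p = 0.217).

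LAMA2, the alpha chain of the laminin around muscle fibres and nerves, was at 0.39, 0.04 and 0.09 in the control arrays and -0.04, -0.29 and -0.33 in the SDC1 siRNA arrays. The groups did not overlap, and control replicate 2 and SDC1 siRNA replicate 1 lay closest to each other. The fall was 0.39 (SE 0.11, adjusted p = 0.0314), with -0.56 and -0.39 within the batches. It was lost without control replicate 1 (-0.28, adjusted p = 0.0831) and without SDC1 siRNA replicate 2 (-0.35, adjusted p = 0.0961) or 3 (-0.34, adjusted p = 0.103). The middle-class probe sets 205116_at and 213519_s_at, not in that value, fell by 0.56 and 0.49 (adjusted p = 0.00405 and 0.00642). The dim 216839_at, also left out, was at 0.04 (adjusted p = 0.81) with overlapping groups.

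Beta and gamma chains and the other alpha chains did not pass. LAMB1, a beta chain of many laminins, was at 0.25, 0.07 and 0.05 against -0.05, -0.08 and -0.17, without overlap, and at -0.22 (SE 0.073) had an adjusted p of 0.0525, just short of the test. It passed in 6 of 15 alternatives, among them with an adjusted p of 0.0151 (-0.27) with a block for the spike-in batch, of 0.0334 under a robust prior, of 0.0431 without dim genes, of 0.0465 with all probe sets averaged and of 0.04998 with array medians subtracted. It did not pass in any fit that left out 1 array. LAMC1, the common gamma chain, was at -0.05 (SE 0.059, adjusted p = 0.627). LAMA5, the main alpha chain of adult epithelia, had SDC1 siRNA arrays at 0.00, -0.01 and -0.38, so that its change of -0.17 (adjusted p = 0.263) came to -0.05 without SDC1 siRNA replicate 3. LAMA4, of vessel walls, was at 0.13 (adjusted p = 0.185), and LAMB3, a chain of the laminin that anchors epidermis, at 0.14 (adjusted p = 0.140). LAMB2 was at 0.04 and LAMC3 at 0.03 (adjusted p = 0.691 and 0.812). The nidogens NID1 and NID2, which bridge laminin and type IV collagen, were at 0.01 (SE 0.068) and 0.11 (SE 0.10), with adjusted p = 0.947 and 0.495 and overlapping groups.

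Among the lysyl hydroxylases PLOD1 rose. It was at -0.11, -0.07 and -0.17 in the control arrays and 0.18, 0.26 and 0.07 after SDC1 siRNA, without overlap, a change of 0.28 (SE 0.068, adjusted p = 0.0139) and of 0.32 and 0.19 within the batches. Without SDC1 siRNA replicate 2, its highest array, the change was 0.24 (adjusted p = 0.0553). PLOD2, which hydroxylates the ends of collagen chains, was at -0.01 (SE 0.065, adjusted p = 0.919), and PLOD3, which also adds sugars to collagen, at 0.12 (SE 0.071, adjusted p = 0.253).

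LOX, which crosslinks collagen and elastin, had probe sets that disagreed. Its gene value fell by 0.21 (SE 0.060, adjusted p = 0.0286; -0.18 and -0.27 within the batches), the mean of 3 bright probe sets that all passed the test. Of these, 204298_s_at was at 0.48, 0.53 and 0.29 in the control arrays and -0.37, -0.30 and -0.29 after SDC1 siRNA, a change of -0.75 (SE 0.084, adjusted p = 0.000394). The probe set 213640_s_at was likewise lower, at -0.50 (SE 0.085, adjusted p = 0.00355). In contrast 215446_s_at was at -0.21, -0.24 and -0.29 and 0.53, 0.37 and 0.21, a rise of 0.62 (SE 0.092, adjusted p = 0.00177). In each of the 3 the groups did not overlap, so the averaged value describes none of them. Its call held without SDC1 siRNA replicate 1 and was lost without any other single array (adjusted p between 0.0577 and 0.0832).

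LOXL2, a secreted lysyl oxidase of the same family, was at -0.13 (SE 0.060, adjusted p = 0.165), again a mean over probe sets that differ. Its probe set 202998_s_at was at 0.18, 0.24 and 0.18 in the control arrays and -0.23, -0.18 and -0.24 after SDC1 siRNA. That probe set fell by 0.42 (SE 0.067, adjusted p = 0.00264) and the middle-class 202997_s_at by 0.41 (adjusted p = 0.0126), while 228808_s_at gave 0.17 (adjusted p = 0.213). When all 6 arrays set the class, which leaves 228808_s_at out, LOXL2 passed at -0.42 (adjusted p = 0.000665), and at -0.22 (adjusted p = 0.0232) with all probe sets averaged. Over the 40 genes, 9 of 107 single-gene probe sets rose and 20 of 107 fell. Of all 54613 probe sets, 9.70% rose and 10.1% fell (19.8% in either direction), including those tied to no gene or to several. These shares were not tested against each other. LOX and COL12A1 were the 2 genes with probe sets past the test in both directions.

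**Figure D4:**
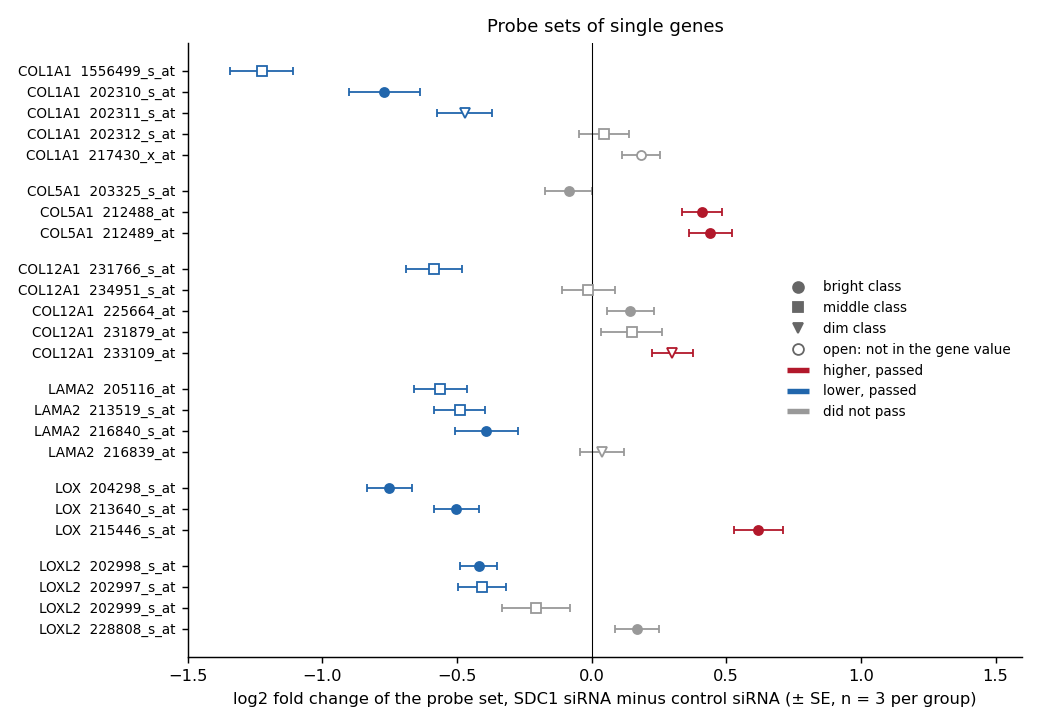
Log2 fold change of single probe sets, SDC1 siRNA minus control siRNA (x axis, point with SE, n = 3 per group), for 6 genes whose probe sets differ (y axis); open symbols are not in the gene's value and colour marks those past the test. LOX has probe sets at -0.75 and 0.62, and COL12A1 at -0.58 and 0.30.

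Promoter sequence is shown for COL7A1, the gene with the largest rise, for COL15A1, the one with the largest fall among those with a RefSeq promoter, and for COL5A1, which rose while its partner chain fell. Each line gives the 250 bases before the start, 5′ to 3′ on the gene's strand, from RefSeq on GRCh38.p14. They span chr3:48595330-48595579 on the minus strand for COL7A1, chr9:98943657-98943906 on the plus strand for COL15A1 and chr9:134641553-134641802 on the plus strand for COL5A1. Capitals mark matches on either strand to the CCAAT, GC and TATA boxes and the AP-1 motif as spelled out for type IV collagen, none of which overlapped another:
COL7A1: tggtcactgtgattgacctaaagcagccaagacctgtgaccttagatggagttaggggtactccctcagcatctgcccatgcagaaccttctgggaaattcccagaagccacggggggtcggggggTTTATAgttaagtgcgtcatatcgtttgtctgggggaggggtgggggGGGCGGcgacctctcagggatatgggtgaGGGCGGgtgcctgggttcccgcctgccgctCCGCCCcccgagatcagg
COL15A1: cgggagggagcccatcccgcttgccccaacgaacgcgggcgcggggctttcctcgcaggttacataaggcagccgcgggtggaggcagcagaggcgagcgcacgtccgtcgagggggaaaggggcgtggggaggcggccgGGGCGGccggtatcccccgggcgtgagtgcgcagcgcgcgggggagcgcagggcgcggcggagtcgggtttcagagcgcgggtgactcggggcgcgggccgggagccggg
COL5A1: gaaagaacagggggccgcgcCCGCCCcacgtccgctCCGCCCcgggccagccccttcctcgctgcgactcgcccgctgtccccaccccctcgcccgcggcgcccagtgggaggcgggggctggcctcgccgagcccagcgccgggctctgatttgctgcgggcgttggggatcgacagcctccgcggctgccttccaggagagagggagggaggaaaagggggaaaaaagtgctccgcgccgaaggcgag
COL7A1 has 3 matches to GGGCGG and 1 to TATAAA, COL15A1 has 1 to GGGCGG and COL5A1 has 2. The COL7A1 match to TATAAA lies on the strand opposite the gene's, and its use as a TATA box was not tested. None of these stretches has a match to CCAAT or TGANTCA. Promoters of 31 of the 40 measured genes were counted. The others had no window in the RefSeq promoters used, COL5A2 and COL1A1 among them, or lay on 1 chromosome. Genes on that chromosome were left out of this count by rule, though kept among all RefSeq promoters. GGGCGG was present in 24 of them (77.4%) against 42.6% of 35116 RefSeq promoters of that length. CCAAT was present in 10 (32.3% against 32.0%) and TATAAA in 3 (9.68% against 10.7%). TGANTCA was in none of them and in 6.57% of all. These shares were not tested. Only 1 window per gene was counted here, against every window among all promoters, and the GC content of all promoters was not taken. GC content of the stretches shown was 60.8% for COL7A1, 76.8% for COL15A1 and 74.0% for COL5A1.

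Other genes of collagen biology were read from lists made by name, with earlier results of these data known. In the list for folding, modification and secretion of collagen 3 of 25 measured genes rose and 7 fell, with a median of 0.03. Of the 25, 19 were bright, a class in which 41.5% of all genes passed, so the count lies near the background. SAR1B, a GTPase of the vesicle coat that exports collagen from the endoplasmic reticulum, rose by 1.56 (SE 0.080, adjusted p = 5.21e-06). MIA3, which loads collagen into those vesicles, fell by 0.53 (SE 0.062, adjusted p = 0.000347), and FKBP14, a prolyl isomerase of the endoplasmic reticulum, by 0.88 (SE 0.070, adjusted p = 4.75e-05). TRAM2, which is linked to collagen synthesis at that membrane, rose by 0.50 (SE 0.058, adjusted p = 0.000318). With all probe sets averaged the rise of SAR1B was 0.89 (adjusted p = 1.95e-05). Within the batches these genes were at 1.42 and 1.73, -0.56 and -0.55, -0.90 and -0.95 and 0.52 and 0.47.

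In the list for trimming and crosslinking outside the cell 4 of 15 genes rose and 2 fell, with a median of 0.01, where 13.0% of all genes rose and 15.2% fell. LOXL1, a lysyl oxidase known for elastic fibres, rose by 1.08 (SE 0.093, adjusted p = 6.88e-05; 1.08 and 0.97 within the batches) and LOXL4, of the same family, by 0.39 (SE 0.090, adjusted p = 0.0116; 0.44 and 0.21). ADAMTS3, a procollagen-cutting protease, rose by 0.46 (adjusted p = 0.00326), and FURIN, a proprotein convertase, fell by 0.48 (adjusted p = 0.00214). Collagen and laminin receptors had 1 of 14 higher and 2 lower, with a median of -0.06, again no more than the 28.2% of all genes. The collagen-binding integrin chains ITGA2 and ITGA1 fell by 0.54 (SE 0.062, adjusted p = 0.000330) and 0.37 (SE 0.060, adjusted p = 0.00202), the latter at -0.24 (adjusted p = 0.0564) with all probe sets averaged. CD151, a tetraspanin partner of laminin-binding integrins, rose by 0.29 (adjusted p = 0.0414), a call lost without control replicate 1 or 3 or SDC1 siRNA replicate 1 or 2 (adjusted p between 0.0626 and 0.137) and with a block for the spike-in batch (0.25, adjusted p = 0.0883), and ITGA6 was at -0.20 (adjusted p = 0.151).

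Collagen and laminin genes outside the 42 had 2 of 20 higher and 3 lower, with a median of 0.01, near the 28.2% of all genes. COL24A1 and COL27A1, minor fibrillar collagens, fell by 0.40 and 0.37 (adjusted p = 0.00767 and 0.00436), and COL22A1 and COL21A1, of the fibril-associated kind, rose by 0.30 and 0.28 (adjusted p = 0.0152 and 0.0226). When all 6 arrays set the class, COL27A1 was at -0.0035 (adjusted p = 0.984). The calls of COL22A1 and COL21A1 were lost without control replicate 2 or SDC1 siRNA replicate 1, that of COL22A1 also without control replicate 1 (adjusted p between 0.0523 and 0.0547) and that of COL21A1 without SDC1 siRNA replicate 2 (between 0.0773 and 0.0824). Among other basement membrane and matrix proteins 5 of 20 rose and 3 fell, with a median of 0.09. Of these 20, 13 were bright, and the count lies near the 41.5% of all bright genes. FRAS1, an epithelial basement membrane protein, rose by 0.82, the matrix glycoprotein TNC by 0.70 and the matrix protein ECM1 by 0.59, while TINAGL1 fell by 0.65 (adjusted p between 0.000198 and 0.000922 for these 4). FRAS1 was at 0.16 and TNC at 0.17 (adjusted p = 0.132 and 0.148) with all probe sets averaged.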

How the data were processed

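Total RNA of 6 samples was labelled with biotin, per the labels' protocols, and read on 1 Affymetrix array each. Whether the replicates were separate cultures is not stated, so p-values measure the spread between these samples. The deposited values are log2 expression values of 54675 probe sets, made with RMA per the submitters' processing notes; its version and any further step were not given in the sources used here. Every probe set's median over the arrays lay within 1e-06 of 0, so levels cannot be read. This centring, and the log base, were read from the values.

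The platform annotation gave 41091 probe sets a single gene, 1801 several and 11721 none, and 62 control probe sets were left out. Current symbols came from RefSeq (41037 probe sets matched). The annotation names no genome build. Deposited values keep a rounding step that grows with the level. In the 3 arrays not below the median it separates log2 levels of 2 to 4 (dim), 4 to 8 (middle) and 8 to 16 (bright). Of the bright class 15.7% had a coarser step than such a level leaves, so part of that class may belong in a lower one. Each gene was given the mean over its single-gene probe sets of its brightest class, with _x_at probe sets used where a gene had no other.

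limma 3.58.1 in R 4.3.3 (lmFit, eBayes, 2-sided, no covariates) was fitted on 19775 genes, and again on 54613 probe sets, with Benjamini-Hochberg adjustment over each. It was also run on simulated data with independent noise and no batch, so that check does not cover the spike-in split. The median SE over all genes was 0.075, and the number of arrays limits the precision. Genes named are all members, SDC1 and up to 4 genes of lowest p in each list; markers were chosen for naming after their values were seen. The members and lists were chosen with earlier results of these data known.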

Additional observations from a re-analysis of the deposited data

How the results depend on the processing

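With 3 arrays per group, small changes lie near the test's threshold. Of the 14 genes past the test, COL1A1, COL4A1, COL5A2, COL7A1, COL8A1, COL11A1, COL15A1, COL16A1 and LAMA1 passed in every fit that left out 1 array and under every alternative on all arrays, except that COL11A1, a dim gene, was not in the fit that left out the dim class. Leaving out 1 array gave 2 to 8 rises (8 without SDC1 siRNA replicate 3, 2 without SDC1 siRNA replicate 2), 7 to 10 falls and a median of the 40 changes from 0.0037 (without control replicate 1) to 0.0532. Collagens and laminins outside the 42 then gave 2 to 4 calls, against 5.

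Within the first spike-in batch 1 gene rose and 5 fell (median 0.0613), within the second 2 rose and 1 fell (median -0.0427); fewer arrays were tested there. The lists for folding, for trimming, for other collagens and laminins, and for other matrix proteins gave 5, 3, 0 and 4 calls in the first batch and 5, 2, 0 and 3 in the second, against 10, 6, 5 and 8. Array weights gave a median of 0.0589, and the class from all 6 arrays 3 calls among other collagens and laminins. The cause of these differences was not tested.

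Signs turned for genes that had not passed. COL1A2 was at 0.0595 and COL12A1 at -0.0009 with all probe sets averaged, COL4A3 at -0.0004 with the class from all 6 arrays, NID1 at -0.0122 with array weights and PLOD2 at 0.0027 with the spike-in block. In the first batch COL1A2 was at 0.0378, COL4A5 at -0.0031, COL12A1 at -0.008, LAMC1 at 0.0072, NID1 at -0.0254 and PLOD2 at 0.0848. In the second COL3A1 was at -0.024, COL4A3 at -0.2089, COL4A6 at -0.1026 and LAMB2 at -0.0648. Leaving out 1 array in turn gave changes from -0.0034 to 0.2025 for COL8A2, -0.0396 to 0.0942 for LAMC3, -0.0543 to 0.0179 for PLOD2, -0.0382 to 0.044 for NID1, -0.0955 to 0.0143 for COL1A2, -0.0553 to 0.1786 for COL3A1, -0.0356 to 0.0956 for COL4A6 and -0.0123 to 0.1945 for NID2.

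Deviations of same-numbered arrays from their group means correlated at 0.0146, 0.0812 and 0.0998, and those of differently numbered arrays at -0.1179 to 0.0407. The main fit did not pair the arrays, and whether they are paired was not tested. With the replicate number as a block 7 genes rose and 11 fell. COL6A1, COL6A2, COL4A2 and LAMB1 were the genes that passed in addition (adjusted p = 0.0107, 0.0319, 0.0482 and 0.0420), and no gene lost its call.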
